A study of Arabidopsis thaliana with 4 samples.

Results

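Chromatin accessibility was described here at the ribosomal protein genes of Arabidopsis thaliana, in wild type and in the mbd9-3 mutant. A gene was counted when it is nuclear and protein-coding and its RefSeq product text contains the words ribosomal protein, unless that text also names the chloroplast, a plastid, the mitochondrion, a 50S or 30S particle, a kinase or a methyltransferase. This took 323 genes of 27444. They comprised 175 genes with a large subunit name, 120 with a small subunit name, 11 acidic stalk proteins and 17 whose text places them in neither subunit.

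The rule was meant to take cytosolic ribosomal proteins, and the annotation bears that out only in part. Of the 323 genes, 139 carry a family name with a eukaryotic-type ending or a 40S or 60S name, and 154 carry a name that does not say which ribosome the protein belongs to. Some names counted among the 139, such as L14p/L23e and S7p/S5e, join a eukaryotic-type name to another. Such names do not settle the ribosome either. The remaining 30 of the 323 have annotation that goes against the label. Among them are RPL4 (AT1G07320), whose synonyms name the plastid, AT5G39600, a 39S protein, LOS1 (AT1G56070), which belongs to an elongation factor family, and ClpS-like proteins, so the genes are called ribosomal protein genes below.

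Tn5 transposase cuts accessible DNA, and ATAC-seq reads pile up where nucleosomes are absent or mobile. The data were 4 lists of ATAC-seq peaks, 1 per library, from nuclei of Col-0 flowers at 4 weeks under long days. There were 2 wild-type libraries and 2 libraries of mbd9-3, a line with a T-DNA insertion in MBD9, whose product has a domain of the methyl-CpG-binding type and is a partner of SWR1, the complex that places histone H2A.Z. No other allele or agent was named for either group, and the mutant is a single line of whole flowers. The wild-type lists held 44004 and 43962 rows, the mutant lists 45208 and 37609, and the read depth behind them is unknown. Of 6 flower identity genes, 4 (AP1, AG, SEP3 and LFY) had a summit in all 4 libraries, AP3 had one in 2 libraries and PI in 1, and of 4 root genes COBL9 had one in 3, PLT1 and RHD6 in 2 each and WOX5 in none. The libraries with the same replicate number resembled each other in the widths and q-values of their rows. Rows had median widths of 134 bp (wild type) and 130 bp (mbd9-3) for number 1, against 171 and 161 bp for number 2, and rows with −log10 q of at least 5 made up 35.9% and 32.8% against 50.2% and 44.5%. In presence the picture was mixed. Over all protein-coding genes, 839 genes had a summit in both libraries numbered 1 and neither numbered 2, against 479 in both wild-type libraries alone. Both libraries numbered 2 alone had 326, and both mbd9-3 libraries alone had 245. Among members 6 were in the libraries numbered 1 alone, 6 in those numbered 2, 6 in wild type and 0 in mbd9-3. No source used here says whether the numbers mark a batch, and their part in the results was not tested.

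The cytosolic ribosome joins a small 40S and a large 60S subunit, and its proteins are needed in near-equal amounts in dividing cells. In Arabidopsis each protein is typically encoded by several expressed paralogues, and loss of a single copy often gives a pointed-leaf or other developmental phenotype. Their promoters are known for short shared elements, the telo box and the site II element, which are bound in Arabidopsis by different families of transcription factors.

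Both elements were looked for in the 250 bases upstream of every transcription start site (TSS), on both strands: AAACCCTAA as the telo box, and TGGGCC or TGGGCT as site II. Site II was present upstream of 187 of 323 ribosomal protein genes (57.9%), against 19.2% of all protein-coding genes, and 142 members (44.0%) held 2 or more matches against 12% of all genes. Overlapping matches were counted apart, so a single palindrome TGGGCCCA counts as 2 in members and other genes alike. The telo box was found in 27 members (8.36%) against 2.62% of all genes, and in 1 member it overlapped a site II match. TATAAA was no more frequent than elsewhere, at 47.1% of members and 47.3% of all genes. Among members with a eukaryotic-type name 62.6% held site II, and among the 30 whose annotation goes against the label 36.7%. A match is a run of letters and not a measured binding site.

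The following stretches are the last 160 bases before the TSS of members with values given below, on the gene's strand and clear of other annotated genes. They are shown because the 6 with matches hold 2 or more runs in capitals, and the paralogue of one of them holds none. Capitals mark site II and telo box matches, the sequence is that of RefSeq TAIR10.1, and the coordinates follow TAIR10, whose nuclear chromosomes have the same lengths. The genes are STV1, at chr3:19662026-19662185 (minus strand), RPL5B, at chr5:15903119-15903278 (plus strand), RPS5A, at chr3:3779546-3779705 (minus strand), its paralogue RPS5B, at chr2:15649472-15649631 (minus strand), AT2G44860, at chr2:18502563-18502722 (minus strand), EMB3010, at chr5:3260255-3260414 (minus strand), and emb2171, at chr3:1167090-1167249 (plus strand).
STV1 (AT3G53020): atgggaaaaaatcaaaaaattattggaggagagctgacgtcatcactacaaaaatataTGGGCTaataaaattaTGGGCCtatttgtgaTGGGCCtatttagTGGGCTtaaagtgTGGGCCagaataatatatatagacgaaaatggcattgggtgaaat
RPL5B (AT5G39740): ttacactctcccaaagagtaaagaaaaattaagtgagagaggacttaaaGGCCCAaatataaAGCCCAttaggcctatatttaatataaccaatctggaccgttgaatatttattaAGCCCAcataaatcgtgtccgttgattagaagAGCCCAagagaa
RPS5A (AT3G11940): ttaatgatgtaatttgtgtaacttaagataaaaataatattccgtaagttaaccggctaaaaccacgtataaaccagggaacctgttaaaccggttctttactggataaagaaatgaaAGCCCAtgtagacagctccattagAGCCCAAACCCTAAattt
RPS5B (AT2G37270): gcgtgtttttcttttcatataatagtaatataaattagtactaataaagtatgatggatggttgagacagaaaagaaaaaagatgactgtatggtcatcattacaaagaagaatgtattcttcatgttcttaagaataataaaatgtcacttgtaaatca
AT2G44860: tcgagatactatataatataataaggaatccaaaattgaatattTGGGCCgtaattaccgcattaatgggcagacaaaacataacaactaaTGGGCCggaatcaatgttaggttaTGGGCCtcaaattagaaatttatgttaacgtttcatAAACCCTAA
EMB3010 (AT5G10360): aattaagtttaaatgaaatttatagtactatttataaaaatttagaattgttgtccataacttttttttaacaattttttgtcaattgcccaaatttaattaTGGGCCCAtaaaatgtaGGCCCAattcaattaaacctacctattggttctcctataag
emb2171 (AT3G04400): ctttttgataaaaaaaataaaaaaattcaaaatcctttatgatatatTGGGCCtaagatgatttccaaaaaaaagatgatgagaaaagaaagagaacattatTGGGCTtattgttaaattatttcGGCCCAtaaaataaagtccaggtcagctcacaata

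In STV1, which encodes a large subunit L24 protein, 5 site II matches stood between 102 and 40 bases before the TSS. RPL5B held 4, the nearest ending 7 bases before the TSS, and in AT2G44860, another L24e family gene, 3 site II matches were followed by a telo box that ended at the base before the TSS. In RPS5A the capitals of 14 bases that end 5 bases before the TSS are a site II match and a telo box sharing a base. EMB3010 has 8 capitals in a row because the palindrome matches on both strands.

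Most ribosomal protein genes had a peak. A gene was taken as having one when a peak summit lay between 1 kb upstream of its TSS and its end. A summit was found at 282 members (87.3%) in wild-type replicate 1, 287 (88.9%) in wild-type replicate 2, 271 (83.9%) in mbd9-3 replicate 1 and 275 (85.1%) in mbd9-3 replicate 2. The shares among the other 27121 protein-coding genes were 75.2%, 73.6%, 75.5% and 68.1%. Members were higher in each library, by 12.12, 15.21, 8.45 and 17.09 percentage points, a mean of 13.22 (exact two-sided sign-flip test over 4 libraries, p = 0.13, the smallest the 16 assignments allow). Members are shorter, with a median gene length of 1563 bp against 2088 bp, and the search window ends with the gene, so a longer gene has more room for a summit. With the window ended 200 bp past the TSS in every gene the mean gap was 21.49 points.

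Members with a site II match more often had a summit than members without, at 90.9% against 82.4%, 93.0% against 83.1%, 88.2% against 77.9% and 88.8% against 80.1% in wild-type replicates 1 and 2 and mbd9-3 replicates 1 and 2. Other genes with site II had shares of 89.7%, 90.6%, 88.5% and 86.8%, and other genes without it had 71.8%, 69.7%, 72.4% and 63.7%. For the telo box the order was the reverse. The 27 members with it had shares of 81.5%, 81.5%, 77.8% and 77.8%, and members without it 87.8%, 89.5%, 84.5% and 85.8%. Other genes with a telo box were also lower, at 69.5% against 75.3% in wild-type replicate 1. No test was made of these splits. A divergent neighbour, a gene that starts on the other strand within 1 kb upstream, was more common at members (93 genes, 28.8%) than at other genes (18.6%), and 93.5%, 96.8%, 90.3% and 91.4% of these members had a summit. Members without such a neighbour had 84.8%, 85.7%, 81.3% and 82.6%, still above the 72.5%, 70.3%, 73.2% and 64.8% of other genes without one.

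Across the libraries, 241 members (74.6%) had a summit in all 4, where all protein-coding genes had 58.1%. Another 33 members had a summit in 3 libraries, 22 in 2 and 8 in 1. No summit was found at 19 members (5.88%), where the share over all protein-coding genes was 12.4%. For 7 of these 19, less than 50% of the 50-base words around the TSS occurred once in the genome, and reads were kept only when they matched a single place. These 7 include PGY2 (AT1G33140), whose L6 family product is known from a leaf polarity mutant, 3 S5 family copies at AT1G58684, AT1G58983 and AT1G59359, and AT2G07675, AT2G07696 and AT2G07734 on chromosome 2. The other 12, among them AT1G17080 (L18ae family), AT1G24240 (L19 family) and AT1G33850 (S19 family), had mostly unique words.

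The peaks of ribosomal protein genes sat close to the TSS. The strongest summit, that of the row with the highest fold enrichment, lay a median of 18 bp upstream of the TSS in wild-type replicate 1, 16 bp in wild-type replicate 2, 15 bp in mbd9-3 replicate 1 and 18 bp in mbd9-3 replicate 2. It was within 200 bp of the TSS in 74.5%, 81.9%, 73.8% and 81.5% of members with a summit, against 44.7%, 52.7%, 42.2% and 52.0% of other genes. The difference was 29.8, 29.17, 31.57 and 29.48 points, a mean of 30.01 (exact two-sided sign-flip test, p = 0.13, the smallest possible). Where the window stopped 200 bp past the TSS in every gene, so that gene length played no part, the mean difference was 21.52 points and again positive in 4 of 4 libraries.

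**Figure D1:**
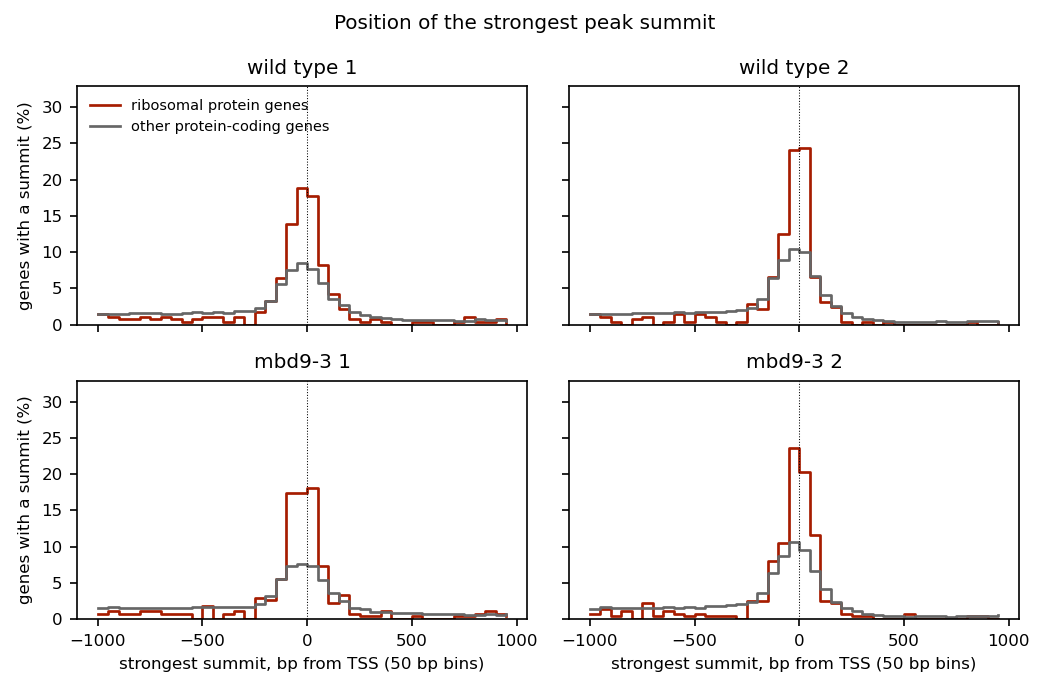
Share of genes with a summit (y axis, percent) by the distance of the strongest summit from the TSS (x axis, bp, in bins of 50 bp, upstream negative), for ribosomal protein genes (red) and other protein-coding genes (grey) in each library. In the 50 bp before the TSS the members reach 18.79%, 24.04%, 17.34% and 23.64% in the panels from top left to bottom right, and the other genes 8.503%, 10.36%, 7.604% and 10.59%.

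All rows in the windows, and not the strongest alone, followed the same order. In wild-type replicate 1, 298 of 527 rows at members (56.5%) had their summit within 200 bp of the TSS against 33.6% of rows at other genes, and in mbd9-3 replicate 2 the shares were 68.6% and 41.9%. Fewer rows lay in gene bodies, at 23.5%, 13.1%, 24.6% and 11.5% for members and 35.9%, 24.5%, 38.5% and 24.7% for other genes. Members are shorter, which leaves less gene body for a row to fall in, and these shares of all rows were not adjusted for gene length. Of the 241 members called in all 4 libraries, 193 had their median summit within 200 bp of the TSS and 115 within 50 bp, 34 had it farther upstream and 14 farther downstream. Position varied between libraries about as at other genes: the 4 strongest summits of a member spanned a median of 62 bp, against 65 bp for other genes. They spanned over 200 bp in 61 of the 241 members (25.3%) and in 30.6% of other genes, so the strongest row is not always at the same site in each library.

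Summits of members fell close to site II. In 154 members with a match and a summit in all 4 libraries the median gap between the summit and the nearest match was 34 bp, and in 4049 other genes 48 bp. Over 108 members with TATAAA the gap was 127 bp. Site II matches of members are themselves near the TSS, with a median position of 54 bases upstream, so the gap and the distance to the TSS cannot be told apart. RPL5B shows the arrangement, with summits at 8, 48, 8 and 38 bp upstream of the TSS in the order of libraries used above, among its 4 matches. In STV1 the summits stood at 204, 203, 207 and 202 bp upstream, beyond all 5 matches and in the 1 kb shared with the divergent gene AT3G53030.

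The other groups of the translation machinery placed the members. Summits were found at 95.0%, 95.0%, 85.0% and 90% of the 20 genes for organellar ribosomal proteins, and 89.5%, 84.2%, 76.5% and 83.3% of those summits were within 200 bp of the TSS, so close placement was not seen at the rule's members alone. The 37 elongation factor genes, which guide tRNA and translocation, had summits at 97.3%, 97.3%, 91.9% and 100%, above the members in each library, and within 200 bp in 52.8%, 58.3%, 38.2% and 51.4%. For the 56 initiation factor genes the near-TSS shares were 69.4%, 76.0%, 63.6% and 66.0%, and for the 50 ribosome biogenesis genes 71.1%, 73.8%, 64.9% and 71.8%. Differences between these groups were not tested.

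**Figure D2:**
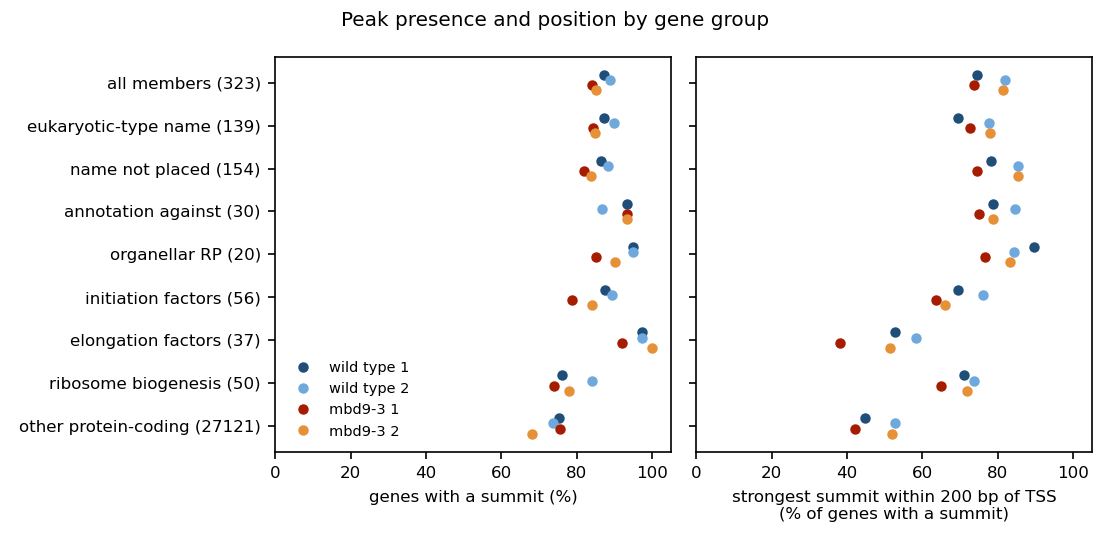
Share of genes with a summit (left, percent) and share of strongest summits within 200 bp of the TSS (right, percent of genes with a summit) for ribosomal protein genes, their annotation classes and other gene groups, with 1 point per library and gene numbers in parentheses. On the left the 4 points of all members lie between 83.9% and 88.9% and those of other protein-coding genes between 68.1% and 75.5%.

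The strength of the peaks was ordinary. Rows were ranked by fold enrichment within each list, and the rank percentile is 100 for the strongest row. The median percentile of the members' strongest rows was 69.4 and 71.6 in the wild-type lists, 68.9 and 65.5 in the mutant lists, and that of other genes 67.1, 69.6, 66.7 and 65.7. The mean difference was 1.59 percentile points and had opposite signs among libraries (exact two-sided sign-flip test, p = 0.25). With only rows whose −log10 q was at least 5, the members ranked lower in 4 of 4 libraries, with a mean difference of −10.16 points (exact sign-flip test, p = 0.13), and with eukaryotic-type names alone the difference was −0.72 points.

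Few members reached the top of the lists. The strongest row was above the 90th percentile in 13.5%, 17.1%, 13.3% and 13.8% of members with a summit, against 18.1%, 19.3%, 18.0% and 17.2% of other genes. Few were at the bottom in wild type, where 7.80% and 5.57% were in the lowest 25 percentiles against 12.9% and 12.7%, and in mbd9-3 the shares were 11.4% and 11.6% against 13.3% and 13.7%. Large and small subunit genes differed in median percentile by −0.61 points (p = 0.5), and members and organellar ribosomal protein genes by 0.33 points (p = 1), both by the exact two-sided sign-flip test over 4 libraries. The latter difference was −2.13, −0.0080, −0.44 and 3.89 points in the single libraries and −11.65 points with −log10 q of at least 5 and −3.09 with summits counted for the nearest TSS only.

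Single members spread widely. Over the 241 called in all 4 libraries the mean percentile ran from 19.6 to 99.1 with a median of 71.3, and 50% lay between 55.1 and 81.7. The SD between members was 18.6, and the median SD of a member over the 4 libraries was 9.71. The 10 highest members were AT1G29070 (L34), AT4G17560 (L19 family), AT1G48830 (S7e family), RPS1 (AT5G30510), AT1G57540 (a 40S protein), AT4G23620, AT4G00810 and AT3G28500 (both acidic stalk proteins), AT5G02960 (S12/S23 family) and AT5G39600. Of these, 4 have eukaryotic-type names and 3, RPS1, AT4G23620 and AT5G39600, are annotated against the label. The other 3, AT1G29070, AT4G17560 and AT5G02960, carry names that do not say which ribosome the protein belongs to. The names of AT1G29070 and AT4G17560, L34 and L19, were grouped apart from the L34e and L19e families. The 10 highest members are therefore not shown to be cytosolic as a set.

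AT1G29070, on chromosome 1 from 10149791 to 10151407, was at the 99.4, 98.7, 99.0 and 99.4 percentile, with summits 18, 9, 15 and 19 bp upstream of the TSS. AT1G48830 reached 99.1, 98.8, 98.7 and 99.4 with summits 113, 96, 140 and 148 bp upstream, in the 1 kb it shares with the divergent gene AT1G48840. Neither differed between the genotypes by more than its libraries differed. AT4G23620 held its summits 972, 946, 979 and 933 bp upstream, in the 1 kb it shares with the divergent gene AT4G23630, so the row cannot be assigned to either gene. With summits counted for the nearest TSS only its mean went from 97.5 to 65.7, and that of AT4G17560 from 99.1 to 70.8.

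Of the members known from mutants, 14 were found under the names looked for, and the means of the 12 with a summit in all libraries ran from 32.1 to 94.1. At the high end, RPL23AA (AT2G39460), a large subunit protein, had wild-type percentiles of 92.0 and 93.2 and mutant percentiles of 94.2 and 96.9. Its summits, 109 to 199 bp upstream, lie in the 1 kb it shares with the divergent gene AT2G39450, and with summits counted for the nearest TSS only its mean fell from 94.1 to 52.2. STV1, whose SHORT VALVE1 mutant alters the gynoecium, had 93.1 and 97.9 against 93.5 and 80.6, with the lowest in mbd9-3 replicate 2, and kept a summit in 3 libraries when only the nearest TSS counted. The L5 genes RPL5B and ATL5 (AT3G25520), also known from the oligocellula leaf mutants, averaged 90.3 ± 4.39 and 71.1 ± 7.76 (SD, n = 4 libraries).

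In the middle were RP1 (AT1G43170), an L3 gene by its synonym RPL3A, at 81.4 ± 6.28, RPS6 (AT4G31700), a protein phosphorylated downstream of the TOR kinase, at 68.9 ± 4.37, PGY1 (AT2G27530), a leaf polarity gene, at 63.3 ± 16.5, RPS13A (AT4G00100) at 58.2 ± 4.75 and SAC52 (AT1G14320), an L10 gene found as a suppressor of acaulis5, at 54.9 ± 18.6 (each SD, n = 4 libraries). SAC52 was at 27.2 in wild-type replicate 1 and between 62.0 and 67.9 in the other libraries. The lowest were RPS5B at 50.7 ± 16.4, RPS5A, which is strongly expressed in dividing cells, at 45.2 ± 13.9, and PFL (AT1G22780), the S18 gene of the pointed first leaves mutant, at 32.1 ± 11.3 (SD, n = 4). Each mean pools both genotypes. The summits of PFL lay 727, 712, 717 and 449 bp upstream, and that of RPS5A in mbd9-3 replicate 1 lay 825 bp downstream, so those ranks are not of a row at the TSS. RPS5A and RPS5B overlapped in their values over the libraries.

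**Figure D3:**
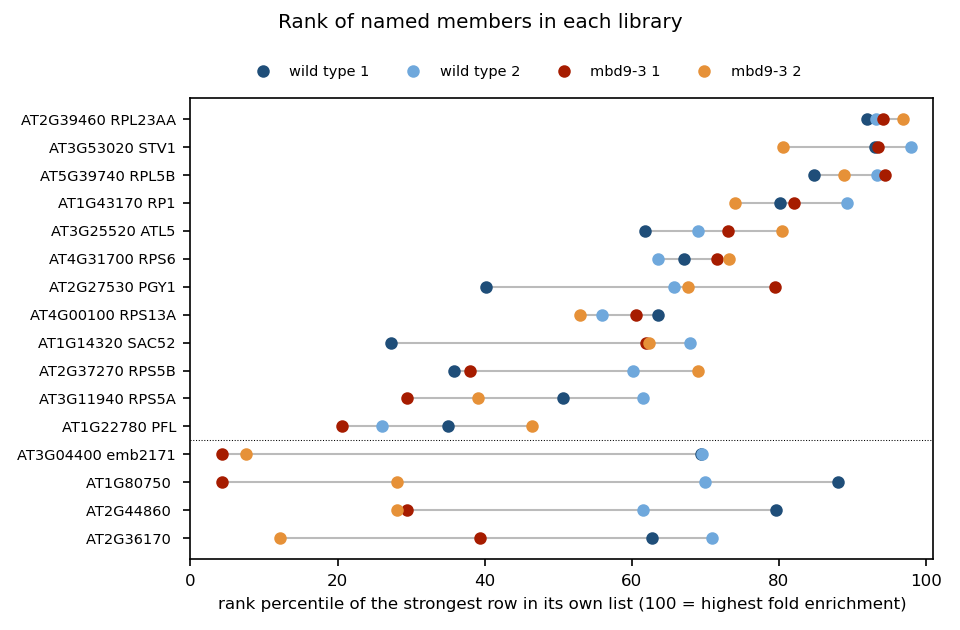
Rank percentile (x axis, 100 being the highest fold enrichment of a list) of the strongest row of 12 members known by mutants or function (above the dotted line) and of the 4 members with the smallest p for a lower rank in mbd9-3 (below it), 1 point per library. RPL23AA lies between 92.0 and 96.9 and PFL between 20.6 and 46.5, and in the lower 4 both mbd9-3 points are below both wild-type points.

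Genes that share a family name were often far apart. Some of these names join several proteins, as L18e/L15 does, so the genes of a family need not be paralogues. In 35 families, as grouped by product name, at least 3 members had a summit in all 4 libraries, and the range of their mean percentiles was 34.1 in the median family, from 12.3 to 73.9, with 9 families above 50. Among the S19e genes, AT3G02080 averaged 93.7 and AT5G61170 81.4 while AT5G15520 averaged 21.8, and in the 4 libraries AT5G15520 was at 27.2, 38.1, 16 and 5.80. In the L18e/L15 family AT1G70600 averaged 93.5, RPL27AB (AT1G23290) 91.4, AT5G27850 83.8 and AT1G12960 19.6. Among 11 acidic stalk genes, whose proteins recruit translation factors to the 60S subunit, AT4G00810 and AT3G28500 averaged 97.4 and 96.9 and AT2G27720 34.4. Of the S3 genes AT5G35530 averaged 91.2 and AT3G53870 30.1.

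**Figure D4:**
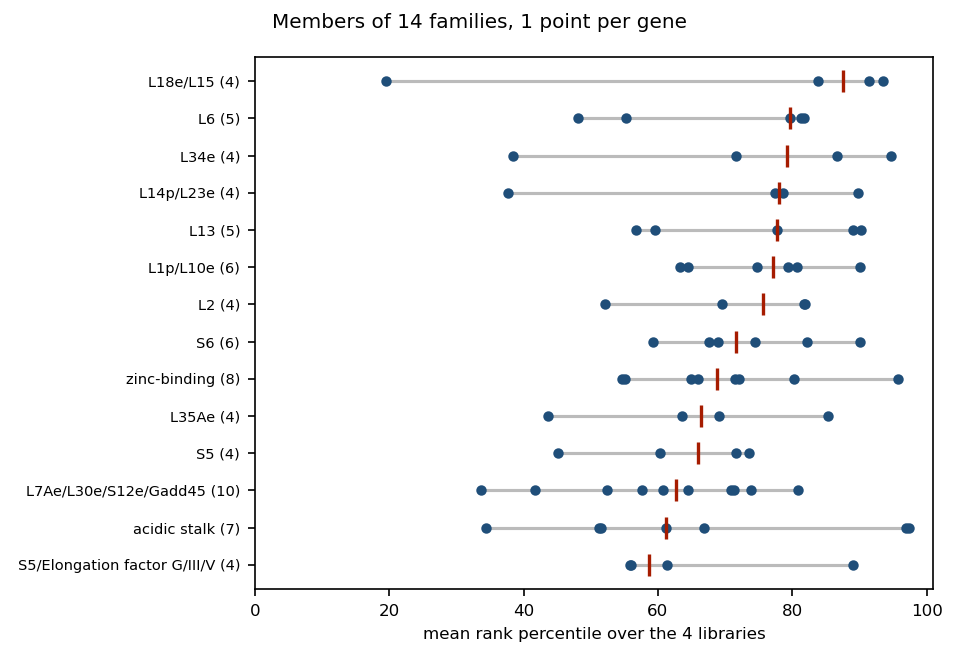
Mean rank percentile over the 4 libraries (x axis) of members in 14 families with at least 4 members called in all libraries, 1 point per gene, with the family median as a red tick and the number of genes in parentheses. In L18e/L15 3 genes lie between 83.8 and 93.5 and AT1G12960 at 19.6.

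The comparison of mbd9-3 with wild type asks whether loss of MBD9 goes with other accessibility at these genes. Wild type had a summit at 88.08% ± 1.09 of members and mbd9-3 at 84.52% ± 0.876 (SD, n = 2 libraries each), a difference of −3.56 points. Over all protein-coding genes the shares were 75.3% and 73.8% against 75.6% and 68.3%, where the groups overlapped, and whether the members' difference departs from that of all genes was not tested. For members, both mbd9-3 libraries were below both wild-type libraries, but with 2 against 2 the exact two-sided permutation test can give no less than its p of 0.33 over 6 assignments. The labels do not say that the libraries came from separate plantings, so p-values measure the spread between these libraries. In whole flowers, a smaller share of cells with an open site and a less open site in each cell cannot be told apart. With rows of −log10 q of at least 5 the difference was −12.38 points (exact permutation test, p = 0.667), and the wild-type shares, 49.8% and 73.4%, overlapped those of mbd9-3, 43.7% and 54.8%.

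Position differed by less than the spread between libraries, with the median wild-type summit at −17 ± 1.41 bp and the median mutant summit at −16.5 ± 2.12 bp (exact two-sided permutation test, SD, n = 2, p = 1). The median percentile averaged 70.49 ± 1.5 over the wild-type lists and 67.18 ± 2.4 over the mutant lists (SD, n = 2), a difference of −3.31 points (exact two-sided permutation test, p = 0.33). Between the libraries numbered 1 the difference was −0.557 points and between those numbered 2 it was −6.06. It was −0.23 points when each list gave the same number of top rows and −0.58 with −log10 q of at least 5 (exact permutation test, p = 1 for both), and −1.62 without mbd9-3 replicate 2 and −5.00 without mbd9-3 replicate 1.

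For 6 members (1.86%) both wild-type libraries had a summit and neither mbd9-3 library did, close to the 1.75% of all protein-coding genes, and for 0 members the reverse held, where all genes had 0.893%. The number of such wild-type members without mbd9-3 replicate 1 was 14 and without mbd9-3 replicate 2 it was 19. These counts ask for absence from a single mbd9-3 library, a looser condition that can only keep or raise the number. The matching shares of all genes are not given here, so the rise is not a result about the members. AT3G13120 (S10p/S20e family, chromosome 3, 4219310 to 4221666) had summits 78 and 85 bp upstream of the TSS at the 50.6 and 51.5 percentile in wild type. AT5G55125, an L31 gene, had summits 64 and 33 bp downstream at 40.2 and 72.9, and AT3G10950, a zinc-binding family gene, 425 and 435 bp upstream at 54.1 and 45.3, in the 1 kb it shares with AT3G10940.

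In the other 3 the wild-type summits did not mark a shared site. EMB3010, an S6e gene, had its summits 1014 and 36 bp downstream of the TSS, at the 8.13 and 53.1 percentile. AT5G43640 (S19 family) had them 827 and 531 bp upstream at 40.2 and 10.7, and AT1G33120 (L6 family), which has no unique word around its TSS, 1352 and 962 bp downstream at 14.6 and 19.6.

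Ranks of single genes were tested with limma on 15935 genes with a summit in all 4 libraries, after the ranks were turned into normal scores. The rank is that of the strongest row in each library, and in 25.3% of members those summits spanned over 200 bp, so the test need not follow a single site. No gene passed an adjusted p of 0.05 (0% of 15935), and so none of the 241 members. At an unadjusted p under 0.05 there were 15 members (6.22%), 14 of them lower in mbd9-3, against 5.32% of all genes, of which 600 of 847 were lower. Without wild-type replicate 2, 6 of 10 members and 257 of 578 genes at that p were lower. The median difference of mbd9-3 from wild type was −0.10 normal score units for members and −0.08 for all genes, and −0.03 for both with the same number of top rows from each list. The fitted difference was below 0 in 64.7% of members and 59.8% of all genes, and in 54.4% and 54.1% with the same number of top rows. Both mbd9-3 percentiles were below both wild-type percentiles in 58 members (24.1%), where all genes had 22.1%, and above in 16 (6.64%), where all genes had 12%.

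The smallest p among members was that of emb2171 (AT3G04400), an L14p/L23e family gene named for an embryo-defective mutant. Its wild-type percentiles were 69.4 and 69.6, those in mbd9-3 4.34 and 7.60. The wild-type summits lay 14 bp downstream and 38 bp upstream of the TSS, the mutant ones 84 and 59 bp upstream. The difference was −2.08 ± 0.30 normal score units (SE; limma, unadjusted p = 0.000124, Benjamini-Hochberg adjusted p = 0.797), lower in both mbd9-3 libraries. Other genes with the L14p/L23e family name averaged 77.4 (HLL, AT1G17560), 78.6 (AT5G46160) and 89.8 (AT1G04480) over the 4 libraries. AT5G46160 was higher in mbd9-3, at 84.2 against 72.9. The shared name joins L14p and L23e, so these genes need not encode the same protein or serve the same ribosome.

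AT1G80750, of the L30/L7 family, had wild-type percentiles of 88.1 and 70.0 against 4.34 and 28.1 (limma adjusted p = 0.905). AT2G44860, of the L24e family, had 79.6 and 61.5 against 29.4 and 28.1, and AT2G36170, an L40 gene, 62.8 and 70.9 against 39.4 and 12.2, with the same adjusted p. In the other direction AT3G02190, an L39 family gene, had 31.6 and 34.1 against 64.5 and 58.8 (limma adjusted p = 0.905). AT1G01100, an acidic stalk gene, had 24.1 and 52.6 against 70.7 and 58.9, and AT4G02230 (L19e family) 75.2 and 60.9 against 84.1 and 85.5 (limma adjusted p = 0.932). AT3G18240 (S24/S35) overlapped between the genotypes, at 3.86 and 29.4 against 24.0 and 55.9. None of these 8 members passed the test.

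**Figure D5:**
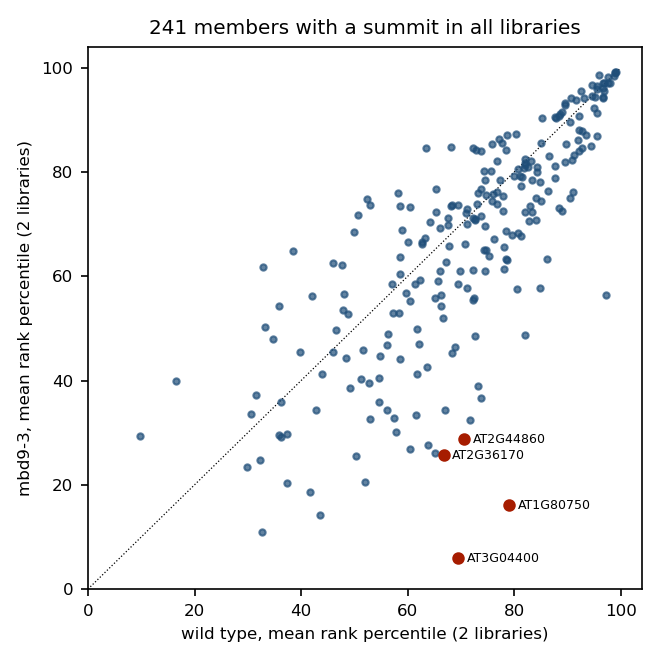
Mean rank percentile in mbd9-3 (y axis, 2 libraries) against wild type (x axis, 2 libraries) for the 241 members with a summit in all libraries, 1 point per gene, with the 4 smallest p for a lower rank in red and equality as a dotted line. The mean percentile was lower in mbd9-3 for 153 of 241 members, and emb2171 (AT3G04400) moved from 69.5 to 5.97. By the fitted difference in normal scores, another measure, 64.7% of members and 59.8% of all genes were below 0.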

How the data were processed

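ATAC-seq peaks of 2 wild-type and 2 mbd9-3 libraries from flowers were analysed, with groups and replicate numbers as the sample labels give them. According to the study's methods, reads were trimmed with Trim Galore, aligned to TAIR10 with single matches kept (Bowtie in the methods, Bowtie2 in the submitters' processing notes), and duplicates and organelle reads were removed. The peak caller, its options and any shift of reads for the Tn5 cut are not given in the sources used here. Peaks were called per library by the authors. Each deposited row gives the fold enrichment (a ratio), the −log10 p-value, the −log10 q-value and a score as the authors' caller wrote them. The lowest −log10 p-value of a list was 2.000 to 2.001. No read counts were used, so depth is unknown and no counting interval is given.

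Genes came from the RefSeq annotation of TAIR10.1. Each gene took the row with the highest fold enrichment among those whose summit lay inside the gene or in the 1 kb before its TSS. Between 45 and 86 rows of a list gave no summit, and these were kept with the middle of the row taken as the summit. The rank percentile is within the list. Library values were compared by exact permutation of genotype or exact sign-flip over libraries. Normal scores of ranks were tested with limma 3.58.1 (R 4.3.3), Benjamini-Hochberg adjusted over 15935 genes. On simulated scores for these 15935 genes, 179 of 200 genes changed by 2 units and 19 of 200 changed by 1 unit were called. The simulation gave every gene the same noise SD of 0.41, which the data need not have. Its counts therefore do not say what share of changed genes the fit to the data would call. In the data emb2171, at −2.08 units, was not called. No label says what the replicate numbers share, so the main fits have no block, although same-numbered libraries resembled each other in the widths and q-values of their rows. Unique words are runs of 50 bases found once in the genome, organelles included, from 500 bases before to 200 after the TSS, and genes below 50% unique are named. Alternatives were rows with −log10 q of at least 5, the top 37609 rows of each list, a window from 500 bp upstream, a window ending 200 bp past the TSS, nearest TSS only, rank by −log10 p-value, each library left out and the replicate block. Members restricted to eukaryotic-type names or to mostly unique sequence were added after seeing the data.

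Named members were the 10 highest, those called in both libraries of 1 genotype and neither of the other, up to 10 with no row, 14 found of a list known from mutants, and the 4 smallest limma p in each direction. Genes compared by family name were chosen after their values were seen. Members and lists were chosen with earlier results of these data known. Python 3.11.15 with pandas 2.3.3, numpy 2.4.6 and matplotlib 3.10.9 was used.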

Additional observations from a re-analysis of the deposited data

How the results depend on the processing

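The higher share of members with a summit and the closer placement on the TSS kept their direction under every alternative run, at 11.93 to 21.49 and 21.52 to 30.34 points. The lower share with a summit in mbd9-3 ranged from −12.38 to −2.786 points. The lower median percentile in mbd9-3 ranged from −5.004 to −0.2277 points. The median summit shift between genotypes turned to −5.5 bp with −log10 q of at least 5, −1.5 bp with equal numbers of rows and −3.25 bp with the window ending 200 bp past the TSS, and leaving out each library gave −1 to 2 bp. The rank difference of members from other genes turned to −10.16 points with −log10 q of at least 5 and −0.7235 with eukaryotic-type names. That from organellar ribosomal protein genes turned to −11.65 with −log10 q of at least 5, −3.091 with the nearest TSS only, −1.987 with eukaryotic-type names and −0.7383 with the window from 500 bp, and leaving out each library gave −0.8588 to 1.146. That of large from small subunit genes turned to 1.295 with −log10 q of at least 5.

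Members with a summit in wild type alone numbered 3 with eukaryotic-type names and 8 to 19 when each library was left out. Members with a summit in mbd9-3 alone numbered 1 with equal numbers of rows, 2 with the nearest TSS only, 1 with the window from 500 bp and 1 to 8 when each library was left out. With a library left out the condition rests on fewer libraries, so both counts can only stay or rise, and the matching shares of all genes are not given here. With absent libraries set to the lowest rank, limma called 3 of 296 members (AT1G33120, AT3G10950 and AT3G13120) and 297 of 21462 genes. In that setting the absent libraries of a gene hold nearly the same value. Under the other limma fits no member was called. Leaving out mbd9-3 replicate 2 gave 1 call, of a gene that is not a member. Apart from the looser condition behind the counts with a library left out, the causes of these changes were not tested.

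With the replicate number as a block, the share with a summit differed by −3.56 points (exact sign-flip over 2 pairs, p = 0.5), and limma called 0 members, with 1165 of 15935 genes at an unadjusted p under 0.05. The deviations of same-numbered libraries correlated at 0.114 over 15935 genes.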
